A study of Homo sapiens with 24 samples.

Results

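The genes of chromosomes 9 and 20 were measured in HEK293 cells and in HEK293 cells stably transfected with Klotho. Both chromosomes were chosen by their measured Kl over WT ratios, as their genes were lower in the Klotho line than in the parent line, so the difference between the lines is itself the value that chose them and is given as a description without a test. A member is a gene listed on chromosome 9 or 20 with a mean of at least 2 CPM, a count scaled to a common library total, over the 24 libraries. There were 912 members among the 13592 genes of the whole series that reached this level. Chromosome 9 held 569 of them, out of 1420 genes listed on it, and chromosome 20 held 343 out of 864. Protein coding genes made up 841 of the members, and all 912 passed the filter on low counts and were tested.

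HEK293 is a line of human embryonic kidney cells, labelled kidney epithelial here. WT denotes the cells without transfected Klotho and Kl the cells that carry it. Each line was left as a control or treated with FGF23, a recombinant human protein, in 2 ways: a dose of 0.5 nM lasting 1 h, and a dose of 10 nM lasting 24 h. Each time had its own control group. This gave 8 groups of 3 libraries, and dose and time changed together and cannot be told apart. Whether the Kl line is 1 clone or a pool, which promoter drives Klotho, and whether the 3 libraries of a group came from separate cultures is not given in the sources used here. The p-values here thus rest on the spread among libraries within groups, pooled over the 8 groups, and that spread may be technical.

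Klotho is the membrane co-receptor through which the hormone FGF23 engages FGF receptors. HEK293 cells carry an abnormal karyotype in which chromosomes are present in unequal copy numbers that differ between sublines. RNA from a chromosome often follows the number of its copies, while single genes depart from that through their own regulation. DNA copy number was not measured here, and every value is from RNA. In bulk RNA, fewer cells that express a gene and less of its RNA per cell cannot be told apart.

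Promoters are shown for the member with the lowest Kl over WT ratio on each chromosome, PXMP4 and RGS3, and for PSAT1 and NR4A3, the members with the largest rise after FGF23 at 24 h and at 1 h, so that the regions behind these readings can be seen. The sequences are from RefSeq, build GRCh38.p14, and run 5′ to 3′ from 250 bases before to 50 bases after the first start listed for the gene. PXMP4 lies at chr20:33720261-33720560 on the minus strand, RGS3 at chr9:113444480-113444779 on the plus strand, PSAT1 at chr9:78296875-78297174 on the plus strand and NR4A3 at chr9:99821635-99821934 on the plus strand. Capitals mark matches on either strand to the strings TATAAA, known from TATA boxes, CCAAT, bound by the factor NF-Y, GGGCGG, known from GC-rich sites of SP1, TGACGT, the core of cyclic AMP response elements, and TGATGNAA, the core of ATF4 elements.
PXMP4: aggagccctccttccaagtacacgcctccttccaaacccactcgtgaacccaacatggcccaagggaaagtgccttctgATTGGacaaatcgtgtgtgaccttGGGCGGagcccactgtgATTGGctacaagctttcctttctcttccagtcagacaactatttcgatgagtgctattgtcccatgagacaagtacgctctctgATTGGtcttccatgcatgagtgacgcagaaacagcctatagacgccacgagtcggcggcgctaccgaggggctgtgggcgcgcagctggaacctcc
RGS3: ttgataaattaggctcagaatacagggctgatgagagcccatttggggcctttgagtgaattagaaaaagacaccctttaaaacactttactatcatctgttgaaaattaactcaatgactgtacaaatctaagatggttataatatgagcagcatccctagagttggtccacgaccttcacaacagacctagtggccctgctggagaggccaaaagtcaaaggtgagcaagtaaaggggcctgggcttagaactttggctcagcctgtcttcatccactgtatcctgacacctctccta
PSAT1: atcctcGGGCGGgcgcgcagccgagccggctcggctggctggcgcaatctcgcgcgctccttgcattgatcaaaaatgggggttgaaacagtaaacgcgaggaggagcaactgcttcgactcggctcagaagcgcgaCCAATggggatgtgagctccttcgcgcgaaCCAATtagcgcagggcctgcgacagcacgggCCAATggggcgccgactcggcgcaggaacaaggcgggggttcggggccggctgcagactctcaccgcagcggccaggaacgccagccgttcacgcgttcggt
NR4A3: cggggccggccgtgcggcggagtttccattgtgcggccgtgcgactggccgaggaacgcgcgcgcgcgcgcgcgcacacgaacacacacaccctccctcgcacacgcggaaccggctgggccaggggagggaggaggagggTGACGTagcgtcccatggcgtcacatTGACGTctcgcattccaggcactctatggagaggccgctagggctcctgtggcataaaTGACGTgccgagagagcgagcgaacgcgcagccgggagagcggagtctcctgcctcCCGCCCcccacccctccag
PXMP4 and PSAT1 each held CCAAT 3 times and GGGCGG 1 time in this window. NR4A3 held TGACGT 3 times and GGGCGG 1 time, and RGS3 held none of the 5 strings. Among the 27305 promoters of the table, CCAAT was found in 35.7%, GGGCGG in 44.6%, TGACGT in 8.3%, TATAAA in 12% and TGATGNAA in 3.7%. By symbol, 713 of the 912 members matched the table. Of their promoters, 32.8% held CCAAT, 73.5% GGGCGG, 11.8% TGACGT, 5.2% TATAAA and 1.7% TGATGNAA. The table also holds genes that these cells do not express, and a match of letters is a description, not a binding site.

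KL, the transfected gene, was at 0 to 0.781 CPM in the 12 WT libraries and at 1002 to 2167 CPM in the 12 Kl libraries, so every library matched the line in its label, while treatment and time were not checked by this gene. Libraries held 15849564 to 30446989 counts each. Of the epithelial genes, KRT8 was at 512 to 710 CPM in WT and 349 to 500 CPM in Kl, EPCAM at 130 to 162 and 63.1 to 91.9 CPM, CDH1 at 7.23 to 11 and 3.35 to 7.08 CPM, and KRT18 at 94.2 to 109 and 65.7 to 130 CPM. The cadherin gene CDH2 was higher in Kl, at 208 to 271 CPM against 184 to 206 CPM. The kidney lineage factor PAX2 was at 8.43 to 13 CPM in WT and 7.02 to 14.6 CPM in Kl, and PAX8 was at most at 0.4 CPM. The neurofilament genes, which HEK293 cells are known to express, were at 166 to 228 and 145 to 196 CPM for NEFL and 20.1 to 23.6 and 5.15 to 11.6 CPM for NEFM, and INA was at 70.6 to 90.3 and 64.6 to 84.9 CPM. Of the genes of other cell types, PTPRC, PECAM1, CDH5, DCN and ALB were at most at 0.186 CPM and CD74 at most at 0.799 CPM, while the collagen gene COL1A1 was at 20.3 to 24.6 CPM in WT and 11 to 26.3 CPM in Kl. The 3 Kl libraries with FGF23 for 1 h were the most uneven group, with a median SD over members of 0.177 on the log2 scale against 0.054 to 0.09 in the other groups. The main tests share 1 estimate of spread over all 8 groups. The wider spread of this group is thus pooled with that of the others, and p-values that involve it may be too small.

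RNA from both chromosomes was lower in Kl than in WT by a similar amount in each of the 4 pairs of groups. Ratios are differences of the mean log2(CPM + 0.5) between the 3 Kl and the 3 WT libraries of the same treatment and time, so they understate the change of genes with few counts. On chromosome 9 the median ratio over members was −0.31 in the 1 h controls, −0.31 with FGF23 for 1 h, −0.29 in the 24 h controls and −0.31 with FGF23 for 24 h. On chromosome 20 the medians in the same order were −0.36, −0.34, −0.32 and −0.34. Averaged over pairs, the medians correspond to 80.6% of the WT level on chromosome 9 and 78.9% on chromosome 20. The median over the 12648 genes of the other chromosomes was 0.03.

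**Figure D1:**
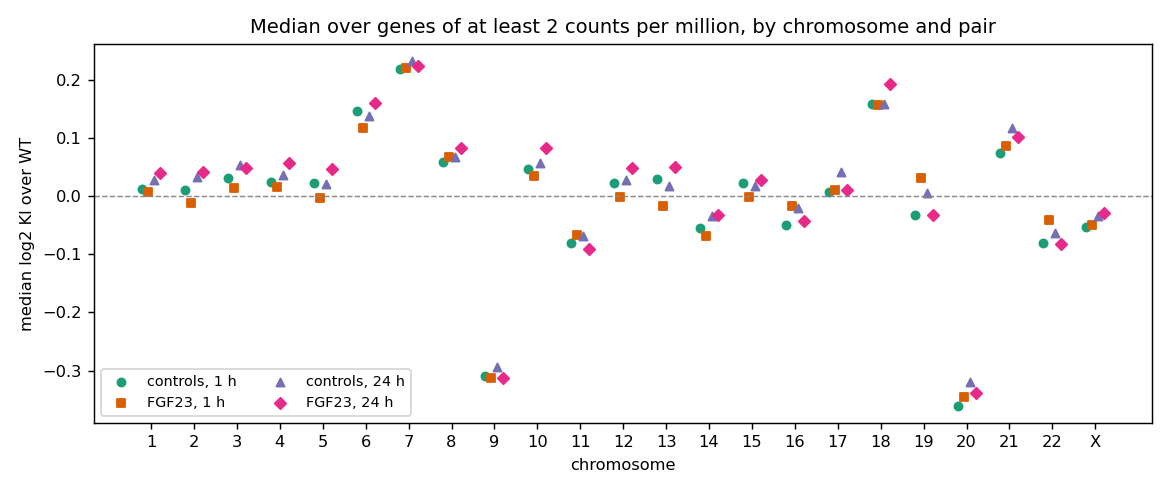
Median log2 Kl over WT (vertical axis) over genes of at least 2 CPM on each chromosome (horizontal axis), with 1 point for each of the 4 pairs. Chromosomes 9 and 20 lie between −0.36 and −0.29 in all pairs, and chromosomes 7, 18 and 6 are the highest, with medians of 0.22, 0.16 and 0.14 over the pair means.

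The share of each library's counts, which scales by the library total alone, showed the same. Genes of chromosome 9 took 4.65% to 4.77% of the counts in the WT libraries, with a median of 4.73%, and 3.72% to 3.88% in the Kl libraries, with a median of 3.77%. Genes of chromosome 20 took 2.35% to 2.46% in WT and 1.81% to 1.94% in Kl, with medians of 2.42% and 1.87%. The lines did not overlap on either chromosome.

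The lower level covered the length of both chromosomes. Windows of 10 Mb by gene start with at least 5 members numbered 13 on chromosome 9 and 7 on chromosome 20, and every member lay in one of them. The window median was below 0 in all 20 windows in each of the 4 pairs, with −0.60 as the lowest and −0.17 as the highest value of any pair. Averaged over pairs, window medians ran from −0.51 to −0.24. In the 282 windows of the other chromosomes they ran from −0.13 to 0.30, and none was as low as the highest window of chromosomes 9 and 20.

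Single libraries were compared in the same windows, each Kl library with the mean of its 3 WT libraries and each WT library with the other 2 of its group. In 19 of the 20 windows all 12 Kl values lay below all 12 WT values, against 5 of the 282 windows elsewhere. The exception was the window at 130 to 140 Mb of chromosome 9, where Kl libraries ran from −0.36 to −0.016 and WT libraries from −0.04 to 0.07. Replicate 1 of Kl with FGF23 for 1 h was the single library inside the WT range there.

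**Figure D2:**
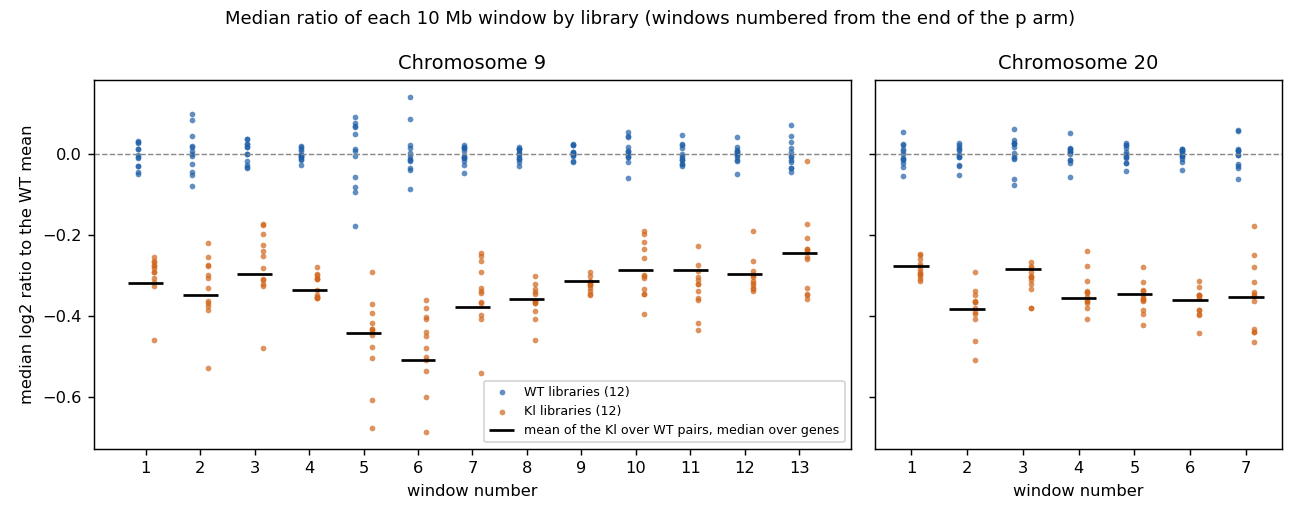
Median log2 ratio to the WT mean (vertical axis) in each 10 Mb window, numbered from the end of the short arm (horizontal axis), for the 12 WT libraries in blue and the 12 Kl libraries in orange, with a black bar for the window median of the pair means. The 2 colours are apart in every window but 1, window 13 of chromosome 9, where the highest orange point is at −0.016.

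Most neighbouring windows differed little. The median size of the step from a window to the next with enough members was 0.041 over 12 steps on chromosome 9. It was 0.044 over 6 steps on chromosome 20 and 0.032 over 261 steps on the other chromosomes. The largest steps were 0.132, 0.105 and 0.192 in the same order. On chromosome 9, 1 step spans 50 to 60 Mb, where no member starts. By arm, the medians were −0.34 over 153 members of 9p, −0.30 over 416 of 9q, −0.30 over 114 of 20p and −0.36 over 229 of 20q. Both arms of both chromosomes were thus lower in Kl.

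The lowest windows lie on either side of the centromere of chromosome 9. The window at 60 to 70 Mb had a median of −0.51 over 18 members and that at 40 to 50 Mb a median of −0.44 over 6 members. Kl libraries ranged from −0.69 to −0.36 in the former and from −0.68 to −0.29 in the latter, wider than the −0.35 to −0.29 seen for the 57 members at 90 to 100 Mb. Several genes there have near-identical copies, among them CBWD3, CBWD5, CBWD6 and CNTNAP3B, so the division of reads between copies is uncertain. The highest window median, −0.24, belonged to the 117 members at 130 to 140 Mb.

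Most members were lower, not a few. The interquartile range of ratios was −0.41 to −0.21 on chromosome 9 and −0.43 to −0.24 on chromosome 20. Ratios were below 0 in all 4 pairs for 773 of 912 members, or 84.8%, against 17.9% of genes on the other chromosomes, and above 0 in all 4 pairs for 12 members. Around the median of their own chromosome the members were spread like other genes, with a median absolute deviation of 0.101 on chromosome 9 and 0.093 on chromosome 20 against 0.1 elsewhere. More than 0.5 from that median were 3.34% of the members on chromosome 9, 3.5% on chromosome 20 and 3.83% of genes elsewhere.

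**Figure D3:**
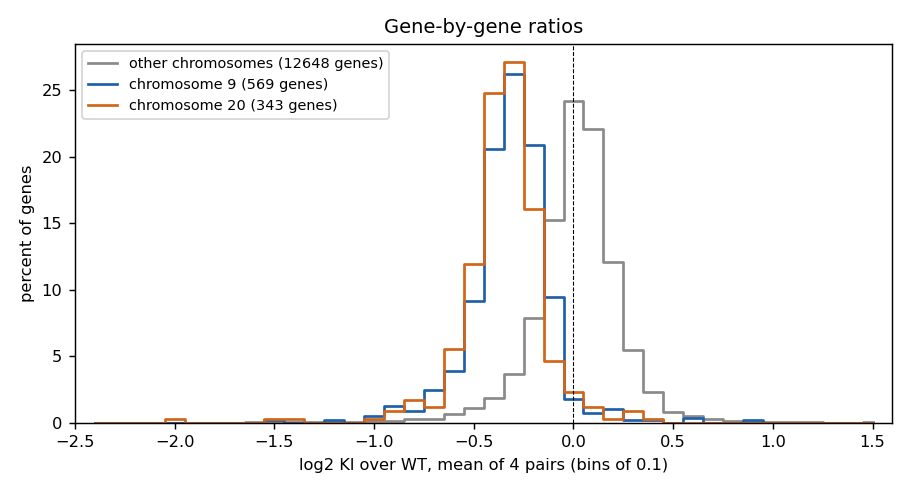
Percent of genes (vertical axis) by log2 Kl over WT averaged over the 4 pairs (horizontal axis) for chromosome 9, chromosome 20 and all other chromosomes. The 2 chromosomes are centred near −0.31 and −0.34, the others near 0.03, and the widths are alike.

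Gene by gene, all 12 Kl libraries lay below all 12 WT libraries for 253 members, 146 on chromosome 9 and 107 on chromosome 20, where 3.19% of all genes of at least 2 CPM did so. They lay above for 2 members, against 2.38% of all genes. These counts come from the difference that chose the chromosomes, and nothing is read from them.

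The ratio varied modestly with abundance and base composition. Over 3 bins of abundance, split at 17.42 and 57.12 CPM, the medians from low to high were −0.36, −0.33 and −0.27 on chromosome 9 and −0.35, −0.34 and −0.33 on chromosome 20. Genes elsewhere showed a like rise with abundance, with −0.03, 0.03 and 0.06. Over 3 bins of GC content of the longest transcript they were −0.34, −0.31 and −0.28 on chromosome 9 and −0.34, −0.36 and −0.33 on chromosome 20, and 0.04, 0.03 and 0.01 elsewhere. Genes that are neither coding nor pseudogenes, mostly long noncoding RNAs, had medians of −0.41 over 34 members on chromosome 9 and −0.47 over 14 on chromosome 20, and −0.05 elsewhere. Coding members had medians of −0.30 and −0.33, and coding genes elsewhere 0.03. Over 3 bins of CpG number in the promoter window the medians from few to many were −0.34, −0.33 and −0.29.

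At the abundance that defines membership, the nearest genes inside were the pseudogene SNX18P7 at 2.01 CPM on chromosome 9 and UBE2V1, a ubiquitin conjugation cofactor, at 2.05 CPM on chromosome 20. The nearest outside were PTGES, a prostaglandin E synthase, at 1.99 CPM and AL354836.1 at 1.89 CPM. Their ratios in the 1 h controls were −0.56 for SNX18P7, −0.25 for UBE2V1, −0.50 for PTGES and −0.32 for AL354836.1.

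Over 8 lists of members by role the median ratio ran from −0.38 to −0.27, beside −0.32 over all members. The lists hold members of chromosomes chosen for their lower ratios, so nothing particular to a role is read from them. Ratios below 0 in all 4 pairs were found for 84.8% of all members, and the lists are counted beside that share. Ratios were below 0 in all 4 pairs for 27 of 33 signalling genes, 31 of 35 genes of the cell cycle and genome maintenance and 38 of 48 of transcription and chromatin. The same held for 28 of 30 genes of RNA and translation, 40 of 44 of metabolism and mitochondria and 39 of 42 of protein folding and traffic. It held for 15 of 19 genes of the cytoskeleton and matrix and 9 of 11 of kidney transport.

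PCNA, the sliding clamp of DNA replication (ENSG00000132646, chr20:5114953-5126626, GRCh38), was at 541, 589 and 614 CPM in the lowest, median and highest WT library and at 408, 436 and 515 CPM in Kl. No Kl library reached the lowest WT library. Its ratios, in the order of 1 h controls, FGF23 1 h, 24 h controls and FGF23 24 h, were −0.27, −0.38, −0.34 and −0.45. YWHAB, a 14-3-3 adaptor that binds phosphorylated proteins (ENSG00000166913, chr20:44885676-44908532), was at 389, 414 and 434 CPM in WT and 260, 302 and 369 CPM in Kl. The lines were apart for YWHAB too, with ratios of −0.50, −0.58, −0.39 and −0.20.

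GNAS, which encodes the stimulatory G protein alpha subunit, was at 983, 1013 and 1116 CPM in WT and 846, 880 and 1212 CPM in Kl. Replicate 1 of Kl with FGF23 for 1 h gave 1212 CPM, and the other 11 Kl libraries lay below every WT library. HSPA5, which encodes the endoplasmic reticulum chaperone BiP, had ratios of −0.49, −0.35, −0.13 and −0.12 in the order given above. VCP, an ATPase that extracts proteins for degradation, had ratios of −0.36, −0.32, −0.07 and −0.09. For both genes the libraries of the lines overlapped, and both ratios were closer to 0 in the 24 h pairs.

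The lowest members went well beyond their chromosome's median. PXMP4, a peroxisomal membrane protein gene (ENSG00000101417, chr20:33702754-33720319, minus strand), was at 4.25, 5.07 and 7.46 CPM in the lowest, median and highest WT library and at 0.337, 0.92 and 1.47 CPM in Kl. Its ratios were −1.74, −1.93, −2.14 and −2.32, with the lines apart. RGS3, which encodes a GTPase activator that damps G protein signalling (ENSG00000138835, chr9:113444731-113597743), was at 7.2, 8.9 and 11.2 CPM in WT and 1.81, 2.76 and 5.15 CPM in Kl. The lines were apart here as well, with ratios of −1.502, −1.27, −1.63 and −1.67.

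Other low members of chromosome 20 included WFDC2, a secreted epithelial protein, at 5.49 to 9.49 CPM in WT and 0.969 to 4.21 CPM in Kl, and PCSK2, a prohormone convertase, at 9.37 to 14.4 CPM and 3.08 to 6.25 CPM. LAMA5, a laminin chain of basement membranes, was more abundant, at 167 to 192 CPM in WT and 76.4 to 126 CPM in Kl. On chromosome 9, GSN, which encodes the actin-severing protein gelsolin, was at 39.9 to 60.1 CPM in WT and 18.1 to 36.6 CPM in Kl. DPP7, a dipeptidyl peptidase, was at 61.4 to 76.1 CPM in WT and 31.9 to 46.8 CPM in Kl. Each of these genes had its highest Kl library below its lowest WT library.

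AJM1 and GALNT12 on chromosome 9 were the 2 members with every Kl library above every WT library. AJM1, named for apical junctions (ENSG00000232434, chr9:136844415-136848801), was at 8.07, 10.9 and 14 CPM in the lowest, median and highest WT library and 16.3, 22 and 27.2 CPM in Kl. Its ratios were 0.90, 1.38, 0.68 and 0.76, in the window whose median was −0.24. GALNT12, an enzyme that starts mucin-type O-glycosylation (ENSG00000119514, chr9:98807699-98850081), was at 3.56, 4.84 and 5.17 CPM in WT and 5.47, 6.75 and 9.18 CPM in Kl. On chromosome 20, CPXM1 and VSTM2L had ratios above 0 in all 4 pairs, with overlap between the lines.

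**Figure D4:**
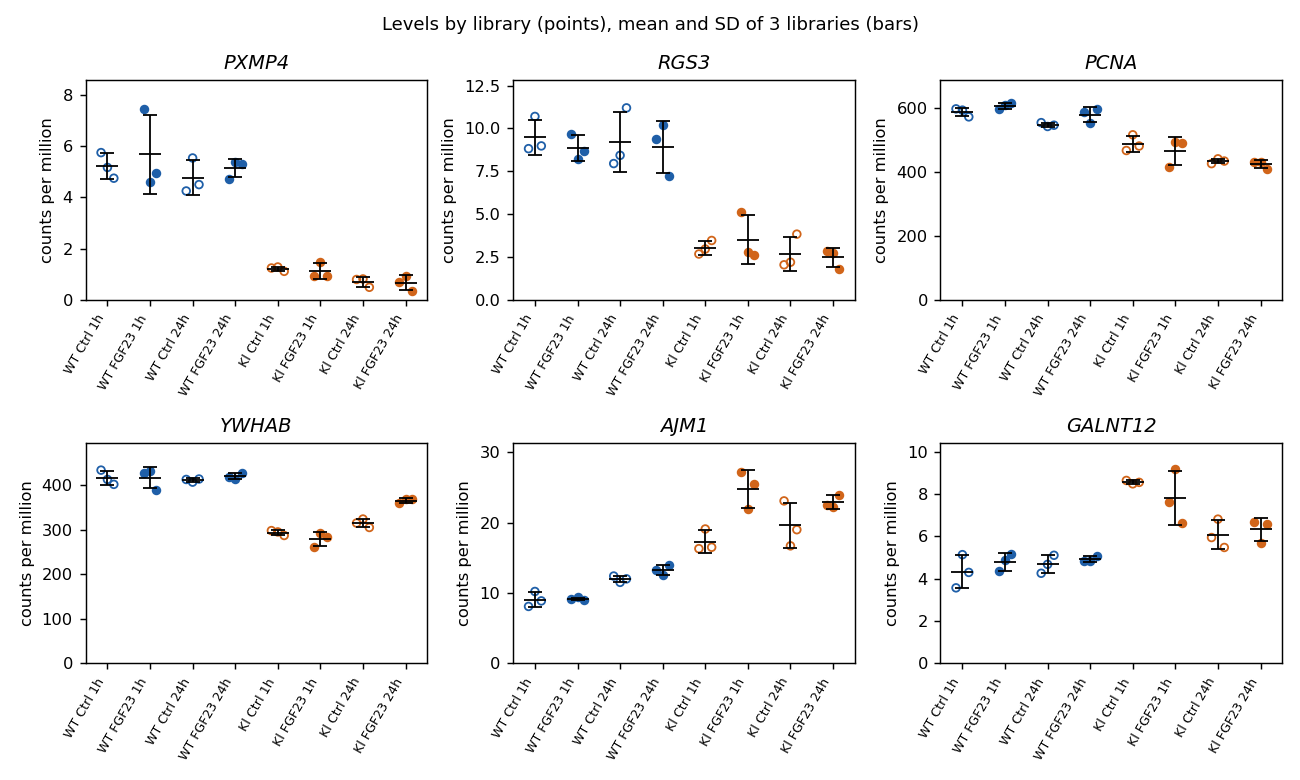
CPM (vertical axes, from 0) of 6 members in each library of the 8 groups (horizontal axes), WT in blue and Kl in orange, controls as open and FGF23 as filled circles, with bars for the mean and SD of 3 libraries. PXMP4 and RGS3 are far lower in Kl, PCNA and YWHAB are lower by less, and AJM1 and GALNT12 are higher.

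The median of neither chromosome moved by much with FGF23. In Kl the median log2 FGF23 over control was 0.003 on chromosome 9 and 0.04 on chromosome 20 at 1 h, and −0.02 on both at 24 h. In WT the medians lay between 0.001 and 0.02. Medians of single windows ran from −0.358 to 0.105 in Kl at 1 h and from −0.102 to 0.088 in Kl at 24 h. In WT they ran from −0.079 to 0.041 at 1 h and from −0.025 to 0.105 at 24 h. The widest range involved the Kl group with the most uneven libraries. Set against the WT mean, its replicate 1 departed from replicates 2 and 3 in some windows of chromosome 9. It was at −0.529 against −0.219 and −0.298 at 10 to 20 Mb, and at −0.016 against −0.346 and −0.235 at 130 to 140 Mb. At 90 to 100 Mb the 3 libraries were alike, at −0.337, −0.323 and −0.314. The cause of the wide range was not tested. The effect of FGF23 within a line played no part in the choice of the chromosomes, so it was tested. In WT, edgeR's quasi-likelihood test called 0 members at 1 h and 0 at 24 h, as it called 0% of the 17790 genes tested, while 9 members at 1 h and 22 at 24 h had an unadjusted p under 0.05. DESeq2 and limma voom called 0 members at both times, and edgeR with the libraries of the contrast alone called 4 lower at 24 h.

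In Kl, 51 members rose and 11 fell at 1 h, against 3.9% and 0.933% of all genes tested. At 24 h 53 rose and 49 fell, against 4.91% and 3.66%. As shares of the members these are 5.59%, 1.21%, 5.81% and 5.37%, near the 4.97%, 1.12%, 6.02% and 4.58% of all genes of at least 2 CPM. With scaling by library totals alone the split at 1 h was 37 higher and 19 lower. Of the 62 calls at 1 h, 7 were also made from the libraries of that contrast alone and 16 by limma voom with a spread for each group. All 102 calls at 24 h were also made by both of these fits.

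Several of the named members that rose in Kl at 1 h encode transcription factors. Of the 48 members of the transcription and chromatin list, 7 rose and 0 fell, beside 5.59% and 1.21% of all members, and the list's median change was 0.05 beside −0.01 over all genes tested. The list was not tested as a group, and nothing particular to it is read from its count. KLF4, a zinc finger factor (ENSG00000136826, chr9:107484852-107490482), was at 17.5, 14.5 and 15.8 CPM in Kl controls and 32.4, 28.7 and 31.1 CPM with FGF23. In WT it was at 27.8, 29.3 and 24.9 CPM in controls and 28.4, 28.2 and 26.2 CPM with FGF23. Untreated Kl cells were below the WT range and treated ones at its top or above. The response in Kl was 0.95 ± 0.09 (log2, SE) with an adjusted p of 3.52e-09, and it differed from that in WT by 0.94 ± 0.12 with an adjusted p of 5.86e-06, both by edgeR. With the libraries of each contrast alone, edgeR gave adjusted p-values of 0.00271 and 0.00218.

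ID1, an inhibitor of helix-loop-helix factors, was at 7.52, 7.31 and 7.67 CPM in Kl controls and 12.4, 14.8 and 13 CPM with FGF23. It remained below the lowest WT library of that time, at 17.2 CPM. Its response was 0.85 ± 0.12 (adjusted p = 2.79e-05 by edgeR, 0.0151 with the libraries of the contrast alone). Its difference from WT, 0.85 ± 0.16 (adjusted p = 0.00411), missed the threshold by limma voom at 0.0607, in a range over alternatives of 7.01e-05 to 0.0607.

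BMP2, a bone morphogenetic protein, was at 29.9, 33.7 and 35.6 CPM in Kl controls and 57.8, 51.9 and 64 CPM with FGF23, above the 34.9 to 41.4 CPM of WT. NR4A3, the nuclear receptor whose promoter is shown above (ENSG00000119508, chr9:99821855-99866891), was at 2.61, 2.96 and 3.69 CPM in Kl controls and 11.5, 11.4 and 6.5 CPM with FGF23 for 1 h. In WT it was at 1.93, 1.69 and 3.18 CPM and then 2.43, 3.01 and 3.1 CPM. The treated Kl libraries stood above all others. The response of 1.66 ± 0.21 passed the test (adjusted p = 4.18e-06 by edgeR, 0.00587 with the libraries of the contrast alone). Its difference from WT did not (1.27 ± 0.33, adjusted p = 0.0625). Alternatives for that difference ranged from 0.00102 to 0.348, on both sides of the threshold, and with a replicate block it passed at 0.0419. CEBPB, a leucine zipper factor, rose by 0.92 ± 0.14 (adjusted p = 5.66e-05 by edgeR, 0.0196 with the libraries of the contrast alone). Its difference from WT at 1 h, 0.76 ± 0.19 at an adjusted p of 0.0479, lost the call under several alternatives, which ranged from 0.000212 to 0.358.

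The FGF23 effect at 1 h differed between the lines for 7 members, all higher in Kl (0.708% of all genes tested), and 0 were lower (0.0281%). The 7 are 0.768% of the members, near the 0.912% of all genes of at least 2 CPM. With library totals alone 6 were higher and 1 lower. The 7 included KLF4, BMP2, ID1, CEBPB, KLF9 and SLC25A25, a mitochondrial carrier. Of the 7, 5 were also called from the libraries of the contrast alone. KLF9, a factor induced by nuclear hormones, rose by 0.40 ± 0.07 in Kl (adjusted p = 0.000189), which became 0.207 with the libraries of the contrast alone, in a range of 4.84e-08 to 0.207. Its difference from WT, 0.44 ± 0.09 (adjusted p = 0.0101), likewise became 0.24, in a range of 9.75e-05 to 0.24.

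At 24 h the effect was higher in Kl for 28 members (2.46% of all genes tested) and lower for 16 (1.32%), and all 44 calls were also made by both other fits. As shares of the members these are 3.07% and 1.75%, near the 3.08% and 1.64% of all genes of at least 2 CPM. The Kl to WT ratio of these 44 members therefore depended on FGF23. For the 28, the median log2 Kl over WT was −0.57 in the 24 h controls and 0.03 with FGF23. All 28 were below 0 in controls and 15 were above 0 with FGF23. For the 16, the medians were 0.01 and −0.46. Both ratios are parts of the tested difference and add no evidence to it.

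PSAT1, the aminotransferase of serine synthesis (ENSG00000135069, chr9:78297143-78330093), was at 412, 391 and 371 CPM in the WT controls of 24 h and 381, 382 and 386 CPM in treated WT. In Kl it was at 179, 179 and 174 CPM in controls and 520, 528 and 515 CPM with FGF23. Kl was thus below WT without FGF23 and above it with FGF23, with no overlap either way. The response in Kl was 1.56 ± 0.07 (adjusted p = 1.44e-16) and its difference from WT 1.59 ± 0.09 (adjusted p = 1.29e-12), both by edgeR.

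TRIB3, a pseudokinase induced in the integrated stress response (ENSG00000101255, chr20:362835-397559), was at 131, 135 and 126 CPM in WT controls and 128, 118 and 128 CPM in treated WT. In Kl it was at 60.4, 59 and 59.2 CPM in controls and 159, 156 and 151 CPM with FGF23. The order of the lines changed as for PSAT1, and the response in Kl was 1.38 ± 0.07 (adjusted p = 1.01e-15, edgeR). ANXA1, the phospholipid-binding annexin A1 (ENSG00000135046, chr9:73151757-73170393), was at 60.9, 65.8 and 66.5 CPM in Kl controls and 183, 182 and 176 CPM with FGF23, against 164 to 183 CPM in WT. Treated Kl cells overlapped with WT, with a response of 1.48 ± 0.09 (adjusted p = 5.93e-13, edgeR).

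TNC, the matrix glycoprotein tenascin C, was at 41.8, 40.9 and 40.5 CPM in Kl controls and 83.3, 85.6 and 83.7 CPM with FGF23 for 24 h, against 62.2 to 71.7 CPM in WT. It passed from below to above the WT range, with a response of 1.04 ± 0.07 (adjusted p = 1.69e-12, edgeR). IARS, the cytosolic isoleucyl-tRNA synthetase, was at 285, 288 and 278 CPM in Kl controls and 424, 448 and 441 CPM with FGF23, with a response of 0.62 ± 0.05 (adjusted p = 2.28e-10). CEBPB rose again, from 15.8, 12.4 and 16.2 CPM to 35.4, 32.2 and 32 CPM, into the WT range of 31.9 to 38.1 CPM.

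**Figure D5:**
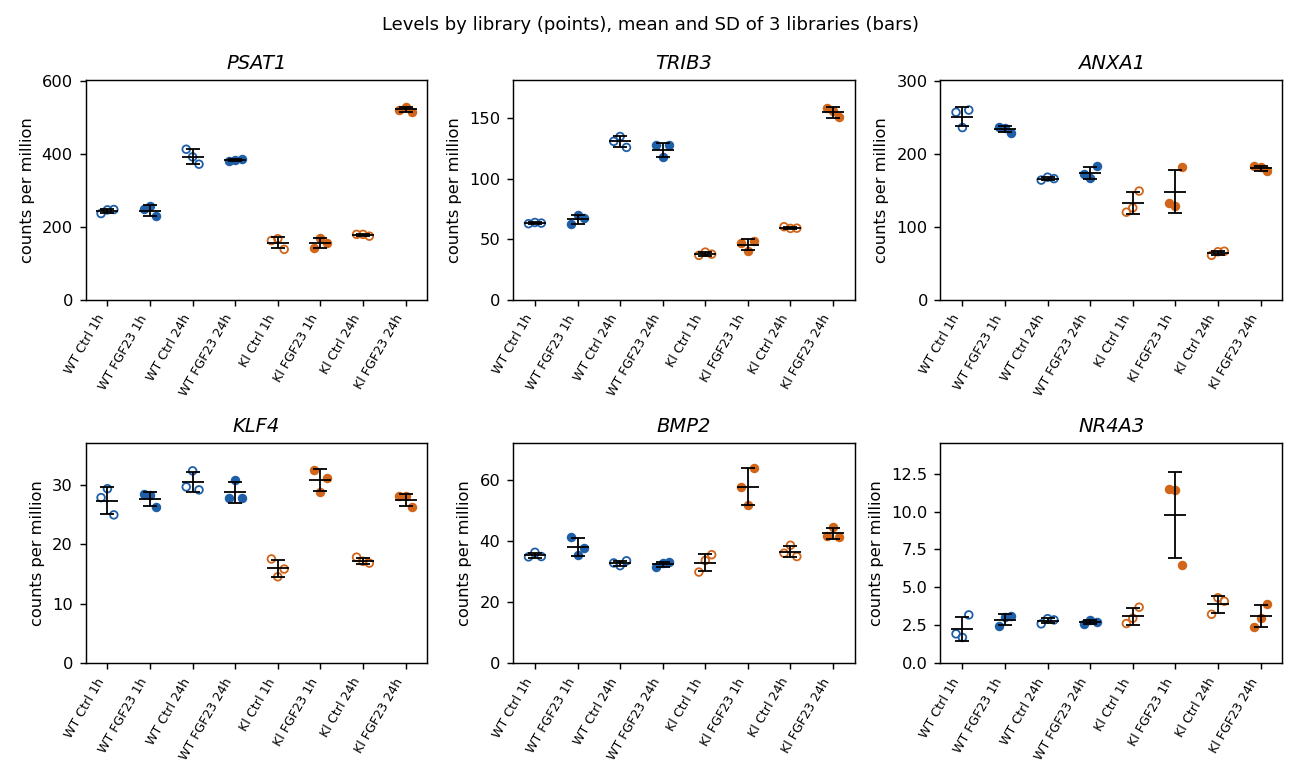
CPM (vertical axes, from 0) of 6 members that rose with FGF23 in Kl, in each library of the 8 groups (horizontal axes), WT in blue and Kl in orange, controls as open and FGF23 as filled circles, with bars for the mean and SD of 3 libraries. PSAT1, TRIB3 and ANXA1 are far higher with FGF23 for 24 h in Kl than in its control, and KLF4, BMP2 and NR4A3 are higher with FGF23 for 1 h.

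Counts by role are given beside the 5.81% of all members that rose and the 5.37% that fell in Kl at 24 h; the lists were not tested as groups. Of 48 members of transcription and chromatin, 9 rose and 2 fell, with a median change of 0.02 beside −0.004 over all genes tested. Among them FOXA2, a forkhead factor, rose by 1.06 ± 0.19 (adjusted p = 0.000385, edgeR). Of 44 members of metabolism and mitochondria, 2 rose and 7 fell, with a median of −0.10. The 2 were PSAT1 and the urea cycle enzyme ASS1, which rose by 0.43 ± 0.08 (adjusted p = 0.000464). NFS1, the cysteine desulfurase of iron-sulfur cluster assembly, fell by 0.46 ± 0.09 (adjusted p = 0.00131). GALT, an enzyme of galactose breakdown, fell by 0.32 ± 0.09 (adjusted p = 0.0286), with alternatives from 0.00548 to 0.139.

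Of 33 signalling genes, 5 rose and 1 fell at 24 h. YWHAB rose by 0.22 ± 0.05 (adjusted p = 0.00818, edgeR), with alternatives from 7.51e-05 to 0.0512, and FLRT3, a membrane protein that binds FGF receptors, fell by 0.85 ± 0.14 (adjusted p = 6.78e-05). Of 30 genes of RNA and translation, 2 rose and 1 fell, among them EIF2S2, the beta subunit of initiation factor eIF2, which rose by 0.54 ± 0.07 (adjusted p = 1.87e-06). Of 35 cell cycle genes 3 rose and 1 fell, of 19 cytoskeleton and matrix genes 4 and 2, of 42 genes of protein folding and traffic 1 and 1, and of 11 kidney transport genes 1 and 1. The medians of these lists at 24 h lay between −0.07 and 0.03.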

How the data were processed

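RNA was measured in 24 libraries, prepared per the labels' protocols with a Nucleospin kit and an NEBNext Ultra kit. The authors deposited 4 tables with raw counts per gene, and beside them, per the file headers, FPKM, a normalized signal, log2 fold changes, p-values and gene coordinates; only the deposited counts and annotation were used. The deposited signal is the counts of a library over its size factor in that table. The submitters' processing notes name mm10, yet the coordinates are human: all 912 members have those of GENCODE release 29 (GRCh38). The aligner, the counter and the strand setting are not given in the sources used here, so overlapping and antisense genes cannot be told apart.

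The tables were joined into 34305 genes, 25355 of them in all 4, and a gene absent from a table was set to 0; such genes reached at most 30 counts in any library. Libraries were scaled by TMM. edgeR 4.0.16 (R 4.3.3) fitted 17790 genes in all 24 libraries with 1 mean for each of 8 groups, leaving 16 residual degrees of freedom, and glmQLFTest p-values were adjusted by Benjamini-Hochberg over all of them at 0.05. Scripts were tested on simulated data. Alternatives were DESeq2 1.42.0, limma 3.58.1 (voom), other scalings, filters, pseudocounts, window sizes, a replicate block and leaving out each library.

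The members, lists and tests were chosen with earlier results of these data known. Named genes were, per chromosome, the 10 lowest and 5 highest ratios in the control pairs, per role list up to 4 of the highest CPM, per FGF23 contrast up to 8 of the smallest p, genes next to the abundance limit, and KL. The CBWD genes, CNTNAP3B, FOXA2, ASS1, NFS1, GALT, FLRT3 and EIF2S2, were named after their values were seen where this rule did not name them. Some genes that the rule names are not reported here.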

Additional observations from a re-analysis of the deposited data

Results flagged for a closer look

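The effect of FGF23 differed between the lines, by edgeR's quasi-likelihood test of the difference itself with Benjamini-Hochberg adjustment over all genes tested, for these named members. Differences are Kl minus WT on the log2 scale. At 1 h they were 0.94 for KLF4, 0.85 for ID1, 0.76 for CEBPB, 0.73 for SLC25A25, 0.7 for BMP2 and 0.44 for KLF9. Over the alternative fits the highest adjusted p of these 1 h differences was 0.00218 for KLF4, 0.0291 for BMP2 and 0.0349 for SLC25A25. It passed the threshold of 0.05 for ID1 (0.0607), KLF9 (0.24) and CEBPB (0.358), whose calls thus depend on the fit.

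At 24 h the differences were 1.59 for PSAT1, 1.45 for TRIB3, 1.41 for ANXA1, 1.08 for TNC and 1.07 for CEBPB. They were 0.95 for IER5L, 0.95 for LINC00963, 0.93 for AKNA, 0.8 for VLDLR and 0.75 for KLF4. They were 0.68 for B4GALT1, 0.67 for IARS and 0.42 for KLF9. The difference of IER5L had an adjusted p of 0.0264 by edgeR, with alternatives from 0.000252 to 0.0776, on both sides of the threshold.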

How the results depend on the processing

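No value reversed its direction under any alternative run. With library totals alone, the chromosome 9 medians were −0.366 (FGF23 1 h), −0.353 (24 h controls) and −0.377 (FGF23 24 h), and those of chromosome 20 −0.379 (24 h controls) and −0.405 (FGF23 24 h). The median over all chromosomes moved down as well under this scaling. It was −0.051 (FGF23 1 h), −0.041 (24 h controls) and −0.049 (FGF23 24 h), against 0.003, 0.017 and 0.017 with TMM. A minimum of 1 CPM gave −0.306 for chromosome 9 in the 24 h controls, and a pseudocount of 0.1 gave −0.319 in the 1 h controls. A pseudocount of 2 gave −0.297, −0.274 and −0.289 on chromosome 9 and −0.341, −0.3 and −0.318 on chromosome 20 (1 h controls, 24 h controls, FGF23 24 h). Means over genes were −0.320 and −0.335 on chromosome 9 and −0.345 and −0.361 on chromosome 20 (24 h controls, FGF23 24 h). All 35 windows of 5 Mb and all 11 of 20 Mb were below 0 in all 4 pairs. Removing the GC trend, an alternative chosen after seeing the data, gave −0.320 for chromosome 20 with FGF23 for 24 h.

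Leaving out 1 library at a time, chromosome 9 medians ranged from −0.319 to −0.313 (1 h controls), −0.31 to −0.296 (FGF23 1 h), −0.31 to −0.292 (24 h controls) and −0.324 to −0.307 (FGF23 24 h). Those of chromosome 20 ranged from −0.374 to −0.353, −0.369 to −0.324, −0.334 to −0.312 and −0.349 to −0.327, and all 20 windows were below 0 each time. Members called in Kl ranged from 31 to 172 at 1 h and from 58 to 108 at 24 h, and in WT from 0 to 0. The 31 came without replicate 2 of the Kl 1 h controls and the 172 without replicate 2 of Kl FGF23 1 h. The 58 came without replicate 3 of the Kl 24 h controls, and 61 without replicate 2 or 3 of Kl FGF23 24 h. The difference between lines ranged from 6 to 36 members at 1 h, with 36 without replicate 2 and 16 without replicate 1 of Kl FGF23 1 h. At 24 h it ranged from 20 to 54, with 20 without replicate 2 and 28 without replicate 3 of Kl FGF23 24 h, 22 without replicate 3 of the Kl controls, 26, 25 and 28 without replicates 1, 2 and 3 of the WT controls, and 27 without replicate 1 or 3 of WT FGF23.

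With no filter, 95 members were called in Kl at 1 h and 20 for the difference at 1 h. With the libraries of the contrast alone, the counts were 7 in Kl at 1 h, 186 in Kl at 24 h, 169 for the difference at 24 h and 4 in WT at 24 h. DESeq2 called 15 and 78 for the difference at 1 h and 24 h. Voom with a spread for each group, also chosen after seeing the data, called 16 in Kl at 1 h, 195 in Kl at 24 h and 153 for the difference at 24 h. The cause was not tested. Among named genes, CEBPB lost its 1 h difference in 12 settings, and KLF9 its response and its difference at 1 h with the libraries of the contrast alone. A replicate block gave 83 and 123 members in Kl, 18 and 61 for the difference and 0 in WT. Same-numbered libraries correlated at 0.05 to 0.12 at 1 h and −0.02 to 0.06 at 24 h. Each sample correlated best with its own number at 1 h and not at 24 h. The labels do not say what a number marks, so the main fit did not pair samples, and whether those of 1 h are paired was not tested.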

Other observations

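Of the 12 members above 0 in all 4 pairs, 3 are pseudogenes of abundant genes on other chromosomes, picked after their values were seen. EEF1A1P5 had ratios of 0.04, 0.25, 0.23 and 0.12, in the order of 1 h controls, FGF23 1 h, 24 h controls and FGF23 24 h, and its parent EEF1A1 on chromosome 6 had 0.19, 0.19, 0.22 and 0.14. YBX1P10 had 0.3, 0.36, 0.43 and 0.27, and YBX1 on chromosome 1 had 0.17, 0.22, 0.39 and 0.18. RPL24P8 had 0.02, 0.21, 0.01 and 0.21, and RPL24 on chromosome 3 had −0.07, 0.04, 0.15 and 0.05. The parents were far more abundant, at 11221 CPM for EEF1A1 against 310.2 CPM for EEF1A1P5. Whether reads are shared between pseudogene and parent was not tested.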
